A study of Mus musculus with 12 samples.

Results

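The BCL-2 family decides, at the outer membrane of the mitochondrion, whether a stressed cell lives or dies, and 10 of its genes were read in tumour-associated macrophages (TAMs) of mice given picrotoxin or its solvent. The genes were taken by symbol as a family of survival and death genes, by a rule that itself uses no measured value, and they are 10 of the 24781 rows of the count table and 10 of the 9580 genes that were tested. They fall into 6 anti-apoptotic genes (Bcl2, Bcl2l1, Mcl1, Bcl2a1b, Bcl2a1d and Bcl2l2), 2 pore-forming effectors (Bax and Bak1) and 2 BH3-only genes (Bcl2l11 and Bid).

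Anti-apoptotic proteins hold the effectors BAX and BAK in check, BH3-only proteins are switched on by stress and bind the guardians or the effectors, and freed effectors open the membrane so that cytochrome c leaks out and starts the caspase cascade. MCL1 is a guardian with a short-lived protein, and A1, the protein of the Bcl2a1 copies, is a guardian of haematopoietic cells whose transcription follows NF-κB. Transcript levels say nothing of the binding between these proteins or of how fast each is degraded.

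The study asked how GABA, which B cells make, acts on macrophages in tumours, and picrotoxin blocks the ionotropic GABA type A receptor. All mice were wild type and bore tumours grown from MC38, a colon adenocarcinoma line of the mouse. The DMSO group received the solvent and the picrotoxin group picrotoxin, by intraperitoneal injections that began before inoculation, and on day 7 after inoculation 100 cells positive for CD45 and CD11b and high for F4/80 were sorted from the tumour into each library. Each group had 6 libraries, which the labels call independent library preparations. The methods give each library its own mouse, whereas figure text gives fewer mice than libraries, so p-values measure the spread between libraries and would be too small if libraries shared a mouse. Mice of this study were C57BL/6 adults of either sex, and the labels give neither age nor sex by library.

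Totals ran from 219630 to 309617 molecules in DMSO and from 201697 to 257016 in picrotoxin libraries, a difference of -24979 molecules on average (exact permutation test, two-sided, p = 0.156; smallest p possible 0.00216). All 12 macrophage markers were detected, and they summed to 1999 to 3161 molecules in DMSO and 2190 to 2955 in picrotoxin libraries. Neutrophil markers summed to 4 to 12 molecules in any library, with S100a9 and Ly6g at 0, and the 5 mast cell markers were at 0 throughout. B cell and dendritic cell markers stayed at or under 7 molecules, with Ms4a1 and Flt3 at 0. T and NK cell markers reached 23 molecules in picrotoxin replicate 6 and at most 2 elsewhere, but 20 of the 23 were Gzmb, and Cd3e, Cd3g, Cd8a and Gzma were at 0 in all libraries. Of the others, Cd3d and Nkg7 had at most 2 molecules in any library, and Cd4, Ncr1 and Klrb1c at most 1. MC38 epithelial markers ran from 8 to 21, all but 2 of these molecules over all libraries being Cdh1, with Epcam, Krt18, Krt19 and Krt7 at 0. Fibroblast and matrix markers, all 12 of them detected, were at 773 molecules in DMSO replicate 5 and 186 in DMSO replicate 3, against 14 to 127 in the other DMSO libraries and 7 to 60 with picrotoxin. Libraries numbered 1 and 2 were alike in a weak way. Deviations from the group mean correlated at 0.0713 to 0.123 between DMSO and picrotoxin libraries that both bore number 1 or 2 (4 pairs), and at -0.160 to 0.0542 where just a single library of the pair did (16 pairs). Pairs both numbered 3 to 6 correlated at -0.0822 to 0.0982 (16 pairs), so those did not deviate together throughout. In RNA of sorted pools, fewer cells of a type and less RNA per cell cannot be told apart.

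Molecules were counted for 3 copies of Bcl2a1 that are nearly identical. Their sequences are shown because they set how far the counts of Bcl2a1b and Bcl2a1d can be read as separate genes. Bcl2a1b lies at chr9:89199209-89207827 on the plus strand, Bcl2a1d at chr9:88723285-88731914 on the minus strand, and Bcl2a1a, the further copy, at chr9:88956900-88962419 on the plus strand of GRCm38. All sequences and positions are from GENCODE release 21 on that build, which is also called mm10 and is the build of the counts. The first 75 coding bases follow, from the start codon in each, and capitals mark the 6 positions in this stretch at which the 3 copies are not all alike. They are read from chr9:89199360-89199434 on the plus strand, chr9:88731645-88731719 on the minus strand and chr9:88957051-88957125 on the plus strand.
Bcl2a1b: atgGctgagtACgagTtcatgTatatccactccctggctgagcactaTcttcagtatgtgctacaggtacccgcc
Bcl2a1d: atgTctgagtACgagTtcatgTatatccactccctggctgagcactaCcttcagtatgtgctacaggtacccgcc
Bcl2a1a: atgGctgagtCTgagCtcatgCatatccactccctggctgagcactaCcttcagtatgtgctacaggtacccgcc

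The last coding exon, which lies nearest to the poly(A) tail that the primer of this assay caught, differed at 1 position (in capitals) over 96 bases. It is read from chr9:89207582-89207677 on the plus strand, chr9:88723437-88723532 on the minus strand and chr9:88962172-88962267 on the plus strand.
Bcl2a1b: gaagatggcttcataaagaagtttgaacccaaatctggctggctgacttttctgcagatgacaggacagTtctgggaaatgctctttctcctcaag
Bcl2a1d: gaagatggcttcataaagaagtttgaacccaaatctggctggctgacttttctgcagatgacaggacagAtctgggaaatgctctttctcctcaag
Bcl2a1a: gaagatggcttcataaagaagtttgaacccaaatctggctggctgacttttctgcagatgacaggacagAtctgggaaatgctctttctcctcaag

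Over the whole coding sequence of 516 bases, Bcl2a1b and Bcl2a1d were 98.84% identical (6 bases differ), Bcl2a1d and Bcl2a1a 98.64% (7 bases) and Bcl2a1b and Bcl2a1a 97.87% (11 bases). Downstream of the last coding base the pair Bcl2a1b and Bcl2a1d differed at 0 of 150 bases. The longest stretch without any difference was 217 bases between Bcl2a1b and either other copy, and 314 bases between Bcl2a1d and Bcl2a1a. A read that lies within such a stretch matches more than 1 copy, and how the counting treated such reads is not given in the sources used here.

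The counts of the copies lay close together. In DMSO replicates 1 to 6 Bcl2a1b had 93, 112, 69, 95, 77 and 100 molecules, and in picrotoxin replicates 1 to 6 it had 67, 83, 88, 73, 64 and 100. Bcl2a1d had 84, 104, 62, 90, 75 and 95 molecules in DMSO and 65, 80, 83, 70, 59 and 99 in picrotoxin libraries. The order Bcl2a1b, Bcl2a1d, Bcl2a1a held in 12 of 12 libraries, and Bcl2a1b exceeded Bcl2a1d by only 1 to 9 molecules. Counts of Bcl2a1d were 89.9 to 99.0% of those of Bcl2a1b, and over all libraries Bcl2a1a reached 76.0% of Bcl2a1b. Normalised molecules of Bcl2a1b and Bcl2a1d correlated at r = 0.988 over the 12 libraries (Spearman 0.972), a description of rows that may count the same reads. They are treated below as a single measurement, and the copy Bcl2a1c had 0 molecules.

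**Figure D1:**
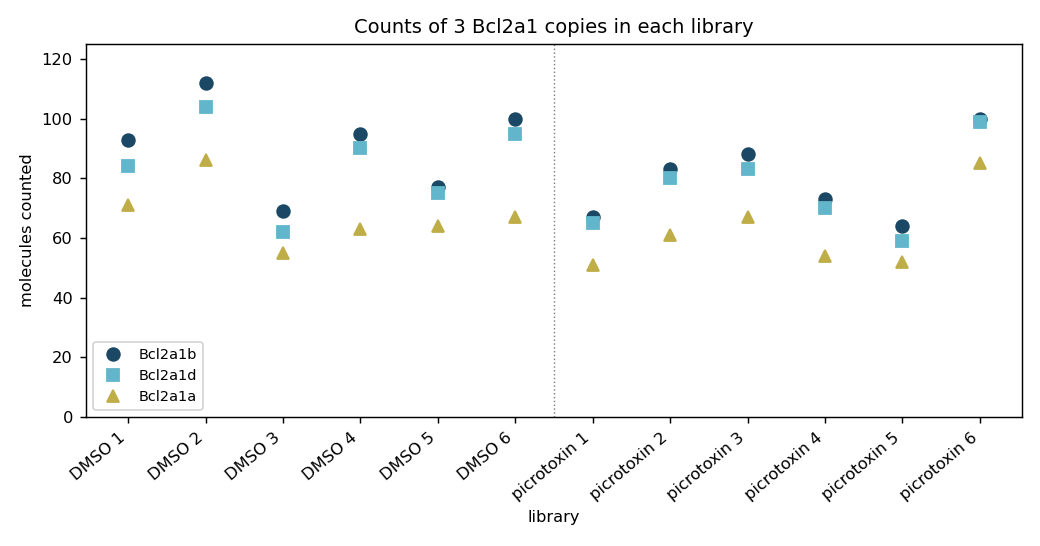
Molecules counted for Bcl2a1b (circles), Bcl2a1d (squares) and Bcl2a1a (triangles) in each of the 12 libraries, the dotted line parting DMSO from picrotoxin. The copies rise and fall together, with Bcl2a1b above Bcl2a1d by 1 to 9 molecules and Bcl2a1a lowest in every library.

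Both per length of transcript and in molecules, TAMs carried far more message for A1 and MCL1 than for any other member. In normalised molecules per kilobase of the longest coding transcript, averaged over all 12 libraries, Bcl2a1b stood at 101.9 ± 20.2, Bcl2a1d at 91.2 ± 18.2 and Mcl1 at 43.0 ± 4.23 (SD, n = 12). The range of Mcl1, 33.9 to 49.4, touched neither that of Bcl2a1d above it, 69.4 to 122.9, nor that of Bax below it, 5.79 to 17.6. The next level held Bax at 11.5 ± 3.46, Bcl2l1 at 10.6 ± 1.49 and Bak1 at 9.71 ± 2.25 molecules per kilobase (SD, n = 12), whose ranges overlapped one another. Lower still and apart from Bak1 were Bid at 3.14 ± 0.89 and Bcl2l11 at 2.94 ± 1.06 (SD, n = 12), which overlapped. Bcl2l2 at 0.88 ± 0.60 and Bcl2 itself at 0.82 ± 0.19 (SD, n = 12) closed the order and overlapped, with Bcl2l2 above Bcl2 in 6 of 12 libraries. Of 9 neighbours in this order, 3 had ranges that did not meet. Division by length is a convention here, which counts of molecules primed at poly(A) do not need. A primer that binds poly(A) in broken RNA samples mostly the 3′ end. A transcript as long as that of Bcl2 (7191 bases) is then set low, and one as short as that of Bcl2a1b (817 bases) high. Without the division, mean normalised molecules per library put Mcl1 first at 146.9 and Bcl2a1b next at 83.3. Mcl1 was above Bcl2a1b in 12 of 12 libraries, and the ranges did not meet. Mean values also put Bcl2l11 at 14.8 above Bax at 12.7 and Bcl2 at 5.92 above Bcl2l2 at 3.36. A1 stands here as 1 copy. If the copies did not count the same reads, Bcl2a1d at 78.7 and Bcl2a1a at 63.6 would add to it.

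Against all tested genes, the mean level of Mcl1 was at the 97.6th percentile, Bcl2a1b at the 95.9th, Bcl2l1 at the 85.4th, Bcl2 at the 43.7th and Bcl2l2 at the 26.3rd. In raw terms 100 cells yielded on average 151 molecules of Mcl1 and 6.17 of Bcl2. Bcl2l2 was down to 41 molecules over all 12 libraries, with 2 to 8 in each library where it was seen.

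The means of the balance between the arms of the family lay within the spread of the libraries of either group. With A1 counted once, through Bcl2a1b, the anti-apoptotic genes made up 85.1% ± 1.51 of the length-corrected family message with DMSO and 85.02% ± 4.36 with picrotoxin (SD, n = 6). Bcl2a1b alone made up 55.2% ± 3.30 and 54.5% ± 6.25, Mcl1 23.0% ± 1.97 and 23.9% ± 2.42 (SD, n = 6). In molecules not divided by length the order was the reverse. Mcl1 then made up 44.9% ± 2.10 and 45.8% ± 2.84, and Bcl2a1b 25.9% ± 2.62 and 25.2% ± 4.41 (SD, n = 6). Which of them leads thus depends on the division, and also on A1 being counted through 1 copy. Per kilobase, the anti-apoptotic message was 4.96 to 6.68 times the death-promoting message in DMSO libraries and 3.81 to 9.15 times in picrotoxin libraries. In molecules not divided by length this ratio was 4.13 to 5.525 in DMSO and 3.55 to 7.0 in picrotoxin libraries. Either way the picrotoxin libraries were spread more widely on it, and its lowest value was in picrotoxin replicate 1 and its highest in picrotoxin replicate 6. That library held 23 molecules of T and NK cell markers, 20 of them Gzmb, with Cd3e, Cd3g and Cd8a at 0.

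To ask whether blockade of the GABA type A receptor shifted any of these genes, the 6 picrotoxin libraries were compared with the 6 DMSO libraries. No member passed: 0 of 10 had an adjusted p under 0.05 in edgeR (Benjamini-Hochberg over 9580 genes, lowest 0.803), against 0.0522% of all tested genes (5 genes, and 0 to 25 when single libraries were dropped), and 0 of 10 had an unadjusted p under 0.05, against 7.77%. DESeq2 gave 0 by either measure, and the exact permutation test of single genes gave 0 with a lowest p of 0.193. In 0 of 10 did the libraries of the groups not overlap, against 0.386% of all tested genes. For 10 genes a count of 0 lies near each of these background shares, so the intervals given below say more than the counts. Fitted differences were above 0 for 5 members and below 0 for 5, with a median log2 fold change of 0.02, beside -0.01 over all tested genes.

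**Figure D2:**
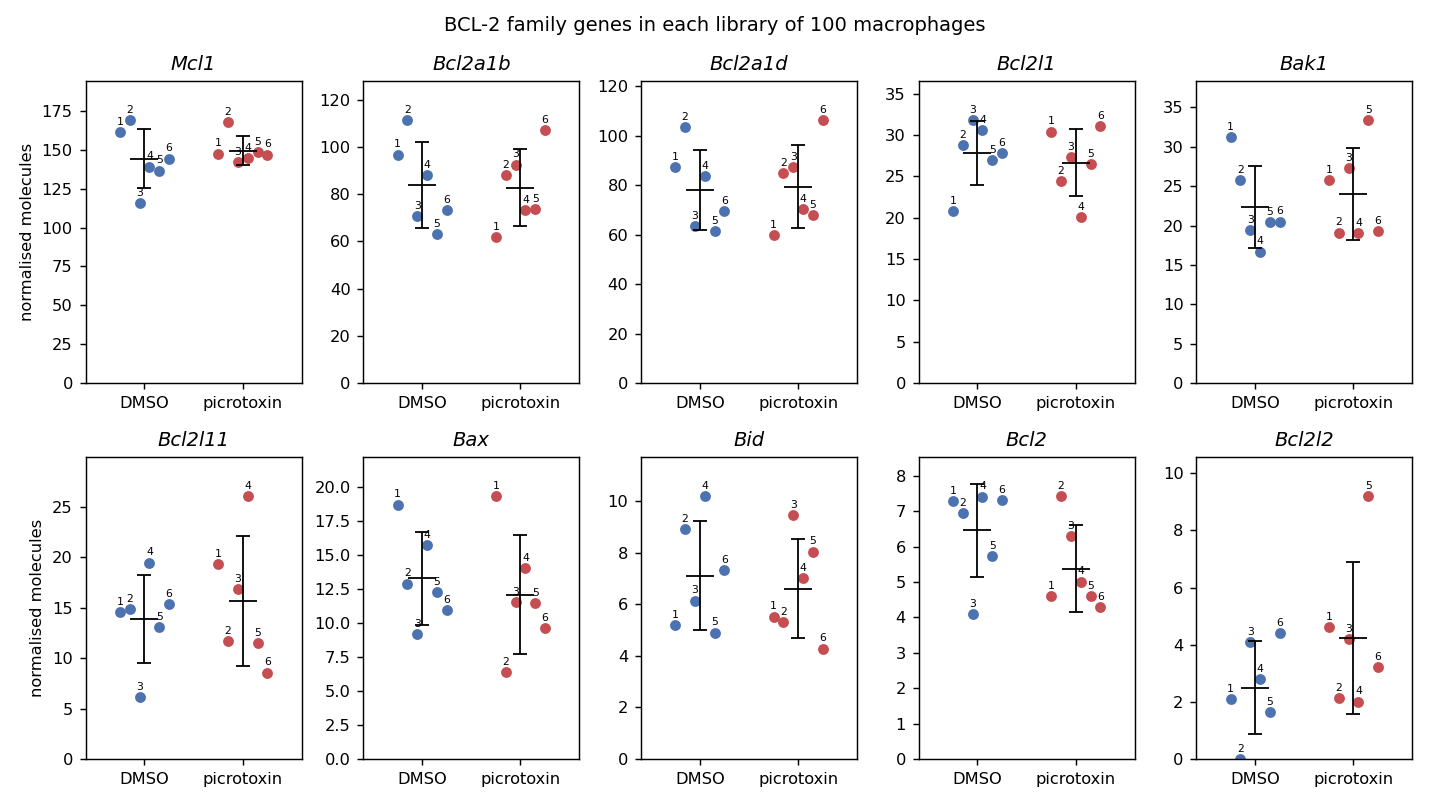
Normalised molecules (counts divided by DESeq2 size factors, linear axes from 0) of the 10 genes in each library, numbered by replicate. Bars give mean and SD of 6 libraries. In every panel the DMSO and picrotoxin libraries overlap.

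Mcl1 (chr3:95658788-95663176, plus strand) had the narrowest interval. Its normalised molecules ran from 115.7 over a median of 141.7 to 168.8 in DMSO and from 141.95 over 147.1 to 167.8 in picrotoxin libraries. The picrotoxin range lay inside the DMSO range, and the lowest library was DMSO replicate 3. The log2 fold change of Mcl1 was 0.06 (SE 0.10), with a 95% interval from 0.900-fold to 1.21-fold (edgeR, adjusted p = 0.945). Libraries of each group differed by 1.61 times what counting error alone gives (chi-square per degree of freedom). Whether more than molecule counting entered the spread was not tested. Without DMSO replicates 3 and 5, the libraries richest in matrix transcripts, the log2 fold change was -0.03.

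The A1 copies spread most of all members between libraries of the same group. Bcl2a1b ran from 62.99 over a median of 80.7 to 111.2 normalised molecules in DMSO and from 61.8 over 80.9 to 107.2 in picrotoxin libraries, and the groups covered the same span. Its log2 fold change was -0.005 (SE 0.14), with a 95% interval from 0.814-fold to 1.22-fold (edgeR, adjusted p = 0.9999). Bcl2a1d ran from 61.4 over 76.5 to 103.3 in DMSO and from 59.9 over 77.6 to 106.1 in picrotoxin libraries, at a log2 fold change of 0.04 (SE 0.14; edgeR, adjusted p = 0.980). With the copies summed before the fit the log2 fold change was 0.03 (SE 0.13), and with only the highest copy it was -0.01. The spread within groups was 3.70 times counting error for Bcl2a1b and 3.50 times for Bcl2a1d.

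In the DMSO group that spread followed the replicate numbers. Among libraries numbered 1 and 2, Bcl2a1b averaged 104.0 normalised molecules in DMSO (96.8 and 111.2) and 74.9 with picrotoxin (61.8 and 88.1), with the DMSO pair higher. Among those numbered 3 to 6 it averaged 73.8 in DMSO (63.0 to 88.1) and 86.6 with picrotoxin (73.2 to 107.2), and these ranges overlapped. Within numbers 3 to 6 alone the log2 fold change was 0.25 for Bcl2a1b (edgeR, unadjusted p = 0.0961, adjusted p = 0.640), 0.28 for Bcl2a1d (adjusted p = 0.607) and 0.37 for Bcl2a1a (unadjusted p = 0.0259, adjusted p = 0.446). The means of Bcl2a1b thus differed in opposite directions in the sets of numbers, with 2 against 2 libraries in the first set. That contrast was not tested, and a term for the sets left Bcl2a1b at 0.002. The log2 fold change of Bcl2a1b also moved in fits that took account of the matrix markers. With the matrix marker score as a covariate the log2 fold change of Bcl2a1b was -0.21 (edgeR, adjusted p = 0.914), and without DMSO replicates 3 and 5 it was -0.15. Their part in the result was not tested. Picrotoxin replicate 6, which held 23 molecules of T and NK cell markers, 20 of them Gzmb, had the highest Bcl2a1b value of its group. Cd3e, Cd3g and Cd8a were at 0 in that library.

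The remaining guardians were scarcer. Bcl2l1 (chr2:152780668-152831728, minus strand) encodes BCL-XL, a guardian of long-lived protein found in most tissues. It ran from 20.8 over 28.3 to 31.8 normalised molecules in DMSO and from 20.1 over 26.9 to 31.1 in picrotoxin libraries, with 1 low library in each group (DMSO replicate 1 and picrotoxin replicate 4). Its log2 fold change was -0.05 (SE 0.16) and its interval ran from 0.768-fold to 1.21-fold (edgeR, adjusted p = 0.978). Libraries differed by 0.564 times counting error, that is, no more than counting gives.

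Bcl2 (chr1:106538178-106714274, minus strand), the founding member, is a guardian best known from lymphocytes. It had 4 to 10 molecules per library, or 4.10 over a median of 7.12 to 7.42 normalised in DMSO and 4.29 over 4.81 to 7.43 in picrotoxin libraries. Of the picrotoxin libraries 5 of 6 lay under the DMSO mean, but the groups overlapped. The log2 fold change of -0.26 (SE 0.31) had an interval from 0.540-fold to 1.29-fold (edgeR, adjusted p = 0.918).

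Bcl2l2 (chr14:54883377-54888234, plus strand) encodes the guardian BCL-w and had the largest fitted difference of the family on the fewest molecules. Normalised molecules ran from 0 over 2.43 to 4.39 in DMSO and from 2.01 over 3.71 to 9.20 in picrotoxin libraries, or 17 and 24 molecules in all. The top value came from 8 molecules in picrotoxin replicate 5, and the groups overlapped. The log2 fold change was 0.69 (SE 0.50) with an interval from 0.801-fold to 3.24-fold (edgeR, unadjusted p = 0.174, adjusted p = 0.803), and leaving out each library in turn moved it between 0.35 and 0.96.

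Of the effectors, Bak1 codes for BAK, which sits in the outer mitochondrial membrane, and Bax for BAX, which moves there from the cytosol when activated. Bak1 (chr17:27019810-27029009, minus strand) ran from 16.7 over 20.5 to 31.2 normalised molecules in DMSO and from 19.1 over 22.5 to 33.4 in picrotoxin libraries. The highest libraries were DMSO replicate 1 and picrotoxin replicate 5, and the groups overlapped. Its log2 fold change was 0.12 (SE 0.19; interval from 0.830-fold to 1.42-fold; edgeR, adjusted p = 0.938). Within numbers 3 to 6 it was 0.36 (edgeR, unadjusted p = 0.121, adjusted p = 0.681), while the means of numbers 1 and 2 gave a log2 ratio of -0.34.

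Bax (chr7:45461697-45466898, minus strand) ran from 9.22 over 12.6 to 18.7 in DMSO and from 6.37 over 11.5 to 19.4 normalised molecules in picrotoxin libraries. Replicate 1 was the highest library of either group. Its log2 fold change was -0.10 (SE 0.25; interval from 0.659-fold to 1.33-fold; edgeR, adjusted p = 0.964). Per kilobase, Bax was 1.03 to 2.05 times Bak1 in DMSO libraries and 0.723 to 1.63 times in picrotoxin libraries. In molecules not divided by length, Bak1 was 1.06 to 2.11 times Bax in DMSO and 1.33 to 3.0 times in picrotoxin libraries. The order of the effectors thus depends on the division, and only per kilobase did it change from library to library.

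The BH3-only members, the sensors of the family, were low per kilobase. In normalised molecules, Bcl2l11 stood at the 72.4th percentile of all tested genes and Bid at the 48.7th. Libraries of each group differed by 1.91 times counting error for Bcl2l11 and 0.591 times for Bid. Bcl2l11 (chr2:128126038-128162547, plus strand) encodes BIM, a killer that binds every guardian and is induced when growth factor support is withdrawn. It ran from 6.15 over 14.7 to 19.5 normalised molecules in DMSO and from 8.57 over 14.3 to 26.1 in picrotoxin libraries, the lowest being DMSO replicate 3 and the highest picrotoxin replicate 4. Its log2 fold change was 0.19 (SE 0.25; interval from 0.798-fold to 1.62-fold; edgeR, adjusted p = 0.926), and it was -0.02 without picrotoxin replicate 4. Bid (chr6:120891930-120916853, minus strand), which caspase-8 cuts to carry death receptor signals to the mitochondrion, ran from 4.91 over 6.73 to 10.2 in DMSO and from 4.29 over 6.28 to 9.46 normalised molecules in picrotoxin libraries. The groups overlapped over nearly their whole span. The log2 fold change of Bid was -0.10 (SE 0.30; interval from 0.610-fold to 1.43-fold; edgeR, adjusted p = 0.976).

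DMSO replicate 3 was the lowest DMSO library for 4 members, Mcl1, Bcl2, Bax and Bcl2l11, and it also held 186 molecules of matrix markers, the part of which in these values was not tested. Several members share ground with other annotated genes, and whether the counting used strand is not given in the sources used here. Bcl2, Bcl2a1d, Bak1 and Bid overlap genes on the opposite strand, Ggnbp1 at Bak1 among them, and Bcl2, Bcl2a1b, Bcl2l2, Bax and Bid overlap genes on their own strand, so that these counts are uncertain to that extent. Mcl1, Bcl2l1 and Bcl2l11 overlap none.

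**Figure D3:**
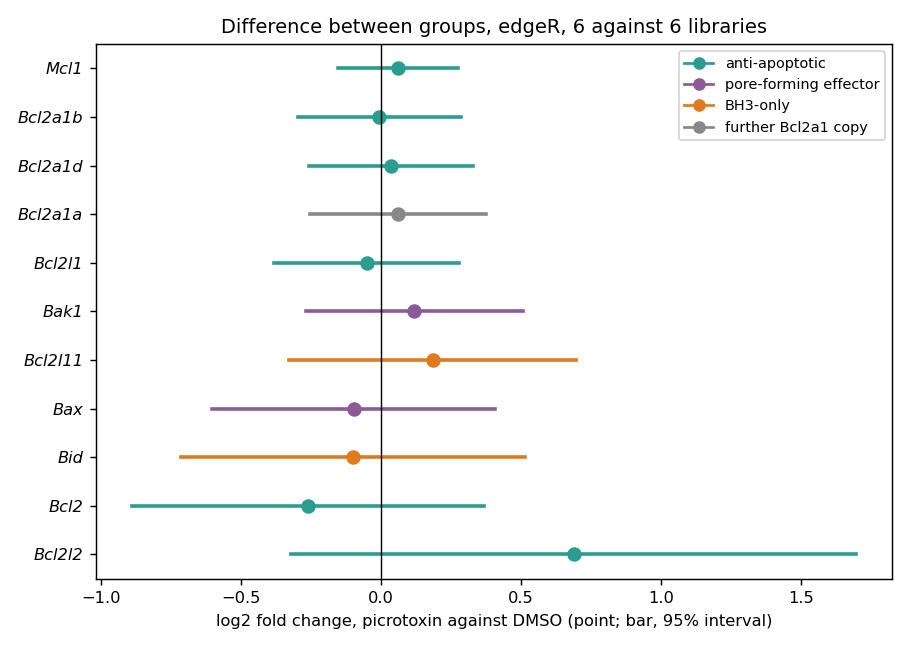
Log2 fold change of picrotoxin against DMSO (points) with 95% intervals (bars) from edgeR for the 10 genes and the further copy Bcl2a1a, in order of mean normalised molecules and coloured by role. Each interval includes 0, and the intervals widen from Mcl1, -0.15 to 0.27, to Bcl2l2, -0.32 to 1.70.

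The genes whose levels followed the leading members across libraries were sought among those with a mean of at least 10 molecules, the Bcl2a1 copies left out. Over 12 libraries the log2 CPM of Mcl1 (molecules scaled to equal library size by TMM) was most like that of Ccl5, a chemokine, at Pearson r = 0.896 (Spearman 0.860). Next came Ucp2, a carrier of the inner mitochondrial membrane, at r = 0.894 (Spearman 0.650) and Sod2, the mitochondrial superoxide dismutase, at r = 0.894 (Spearman 0.923), out of 3816 genes compared. Without the 2 libraries farthest from the median of Mcl1, r was 0.800 for Ccl5, 0.822 for Ucp2 and 0.725 for Sod2. Bcl2a1b was most like Gpsm3, a regulator of G protein signalling, at r = 0.912 (Spearman 0.790). It was followed by Gng2, a G protein subunit, at r = 0.869 (Spearman 0.853) and Rgs1, which ends G protein signals, at r = 0.835 (Spearman 0.923), and without the 2 farthest libraries r was 0.856, 0.823 and 0.853. These are the highest values apart from those between the Bcl2a1 copies and are given as a description, since the points share libraries, depth and the split between numbers 1 and 2 and 3 to 6. Within the family, Mcl1 and Bcl2a1b correlated at 0.574 and Mcl1 and Bcl2l1 at -0.355 over the same libraries.

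The rest of the apoptosis pathway was read from 6 lists of 61 genes, of which 52 were tested. None had an adjusted p under 0.05 in edgeR, and 4 (7.69%) had an unadjusted p under 0.05, close to the 7.77% of all tested genes. DESeq2 gave 1 at an unadjusted p under 0.05 and 0 after adjustment. Fitted differences were above 0 for 35 genes and below 0 for 17, with a median log2 fold change of 0.06 beside -0.01 over all tested genes.

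Ripk3, the kinase that drives necroptosis when caspase-8 is blocked, had the smallest p of these lists in edgeR. It ran from 10.3 over a median of 11.4 to 15.8 normalised molecules in DMSO and from 5.31 over 6.03 to 12.9 in picrotoxin libraries. The picrotoxin libraries lay under all DMSO libraries but for replicate 6, which was among the DMSO values. The log2 fold change was -0.75 (SE 0.27; edgeR, unadjusted p = 0.00778, adjusted p = 0.408; exact permutation p = 0.0108), and it was -0.52 within numbers 3 to 6 (unadjusted p = 0.114). Mlkl, the pore former downstream of it, was at 6.54 ± 2.002 with DMSO and 5.12 ± 1.33 normalised molecules with picrotoxin (SD, n = 6), with overlapping groups.

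Bnip3, a BH3-like protein of mitophagy that hypoxia induces, ran from 18.4 over 29.0 to 44.2 normalised molecules in DMSO and from 13.8 over 21.1 to 34.1 in picrotoxin libraries, at a log2 fold change of -0.44 (SE 0.20; edgeR, unadjusted p = 0.0387, adjusted p = 0.621). Its highest library was DMSO replicate 5, the library with 773 molecules of matrix markers, and without that library the unadjusted p was 0.162. It was 0.0502 to 0.109 without DMSO replicate 2 or without picrotoxin replicate 1, 2, 3, 5 or 6. Xiap, which inhibits caspases directly, ran from 22.7 over 31.4 to 38.0 in DMSO and from 30.5 over 39.5 to 49.8 in picrotoxin libraries (log2 fold change 0.38, SE 0.16; edgeR, unadjusted p = 0.0238, adjusted p = 0.549). Its unadjusted p rose to 0.0917 when picrotoxin replicate 1 was dropped, to 0.0818 for DMSO replicate 6, to 0.0522 for DMSO replicate 3, and was 0.150 within numbers 3 to 6. Tnfrsf1a, the main receptor for TNF, ran from 31.9 over 43.9 to 60.3 in DMSO and from 52.5 over 56.0 to 62.1 in picrotoxin libraries (log2 fold change 0.33, SE 0.14; edgeR, unadjusted p = 0.0262, adjusted p = 0.566). All 6 picrotoxin libraries were above the DMSO mean of Tnfrsf1a, and its lowest library was again DMSO replicate 5, without which the unadjusted p was 0.102, while it was 0.0529 without DMSO replicate 4 and 0.0510 without picrotoxin replicate 5.

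Of the other BCL-2 relatives, 9 of 16 were tested and 4 had no molecule at all (Bcl2a1c, Bcl2l10, Bcl2l15 and Hrk), which over 2888365 molecules allows a share of up to 0.000104% (3 molecules, counting error only). Among BH3-only genes outside the 10 members, Bad was at 9.64 ± 3.52 normalised molecules with DMSO and 9.75 ± 4.12 with picrotoxin, Pmaip1 (NOXA, which targets MCL1 and A1) at 3.79 ± 2.24 and 4.63 ± 2.72, and Bbc3 (PUMA, a p53 target) at 0.996 ± 0.703 and 1.62 ± 1.61 (SD, n = 6). The groups overlapped for each. In the mitochondrial list 15 of 15 genes were tested and none reached an unadjusted p under 0.05 in edgeR or DESeq2. It held Cycs, cytochrome c itself, at 75.6 ± 12.8 and 78.1 ± 11.95 normalised molecules (SD, n = 6). Endog, a mitochondrial nuclease, ran from 1.64 over 2.49 to 3.12 in DMSO and from 0 over 1.06 to 1.84 in picrotoxin libraries, which is 16 and 6 molecules in all (log2 fold change -1.13, SE 0.61; edgeR, unadjusted p = 0.0731, adjusted p = 0.717). The exact permutation test of its log2 CPM gave p = 0.00433. The groups overlapped by little, at a depth of 0 to 3 molecules per library.

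The receptors for survival cytokines did not pass either. Csf1r, the receptor macrophages depend on, was at 214.1 ± 30.7 normalised molecules with DMSO and 217.5 ± 10.03 with picrotoxin (SD, n = 6). Csf2ra, a chain of the GM-CSF receptor, ran from 33.4 over 42.2 to 56.2 in DMSO and from 34.1 over 53.8 to 75.7 in picrotoxin libraries (log2 fold change 0.33, SE 0.17; edgeR, unadjusted p = 0.0653, adjusted p = 0.694). Cflar, the brake on caspase-8, was at 63.9 ± 8.11 and 71.6 ± 7.62 normalised molecules (SD, n = 6). By list, an unadjusted p under 0.05 was reached by 1 of 9 other BCL-2 relatives, 1 of 7 inhibitors of apoptosis, 2 of 11 genes of the death receptor arm, and 0 of 6 regulators of BCL-2 proteins and 0 of 4 cytokine receptors in edgeR, where DESeq2 gave 1, in the death receptor arm.

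**Figure D4:**
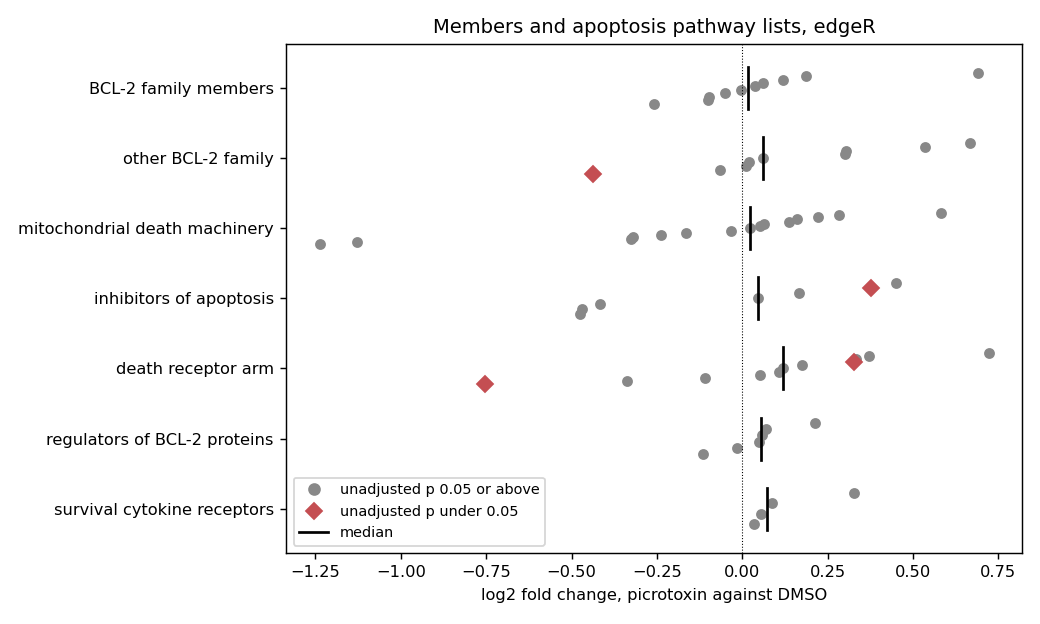
Log2 fold change of picrotoxin against DMSO (edgeR) for each tested gene of the 10 members and of 6 apoptosis pathway lists. Diamonds mark the 4 genes with an unadjusted p under 0.05 (Bnip3, Xiap, Ripk3 and Tnfrsf1a), circles the others, and vertical bars the median of each list, from 0.02 for the members to 0.12 for the death receptor arm.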

How the data were processed

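RNA of 100 sorted macrophages per library was measured in 6 DMSO and 6 picrotoxin libraries. The deposited values are counts of molecules, whole numbers for each gene symbol, made with an oligo-dT primer that carries a molecular barcode. Per the submitters' processing notes reads were mapped with STAR to mm10, and the methods name refFlat as annotation. Treatment of multiply mapping reads and strand is not given in the sources used here. Barcodes remove PCR copies. Limits drawn from a count of 0 cover counting error only. Intervals of fold changes come from the edgeR fit described below and also include the spread between libraries. Of 24781 rows in the deposited table, 10966 held 0 molecules, 26 carried a date in place of a symbol and 2 shared a symbol. Groups come from the agent named in the labels. Libraries of the same group were compared first: over 30 pairs and genes with at least 10 molecules, chi-square per degree of freedom was 1.23 to 3.15, so no library was treated as a copy of another.

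From these counts, genes with a mean above 1 normalised molecule (counts divided by DESeq2 size factors) were tested with the quasi-likelihood test of edgeR 4.0.16 (TMM, no covariate, two-sided), with Benjamini-Hochberg adjustment over 9580 genes. Standard errors were derived from the F statistic, and single genes were also compared by an exact permutation test of log2 CPM (prior count 2) over 924 assignments. DESeq2 1.42.0, other scalings and filters, a replicate block, the split by number, the matrix marker score, the ribosomal RNA row Rn45s, the Bcl2a1 copies and each library left out were alternatives, and leaving out DMSO replicates 3 and 5 together was added after seeing the data. Same-numbered libraries deviated together at correlations of -0.002 to 0.123 over 3828 genes, with 1 of 6 above 0.1, and the labels do not tie the numbers to animals, so numbers were not taken as pairs.

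The members and lists were chosen with earlier results of these data known, although the rule takes the members by symbol alone. All 10 members are named, with Bcl2a1 copies described together, and from the pathway lists the genes of smallest p, up to 3 in each direction, and those with an unadjusted p under 0.05. Further genes are named with their values as background to the lists, a choice made after their values were seen. Likeness was computed for the 2 members of highest count. Positions, lengths and sequences are from GENCODE release 21 for mouse (GRCm38), which differs from the annotation of the counts.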

Additional observations from a re-analysis of the deposited data

Results flagged for a closer look

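In 36 sets of 6 values, 1 per gene and group, Dixon's test at the 95% level was run for a value far from the rest, and 3 had one, where chance gives about 1.8. Mcl1 was at 167.8 normalised molecules in picrotoxin replicate 2, against 141.95 to 148.4 in the other picrotoxin libraries, a value inside the DMSO range. Bcl2l2 was at 9.20 normalised molecules in picrotoxin replicate 5, against 2.01 to 4.61, which rests on 8 molecules. Ripk3 was at 12.9 normalised molecules in picrotoxin replicate 6, against 5.31 to 8.03. This library held 23 molecules of T and NK cell markers, 20 of them Gzmb, with Cd3e, Cd3g and Cd8a at 0. What set these libraries apart was not tested.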

How the results depend on the processing

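The 10 genes were refitted 231 times over all alternatives. None of these fits gave an adjusted or unadjusted p under 0.05 (edgeR or DESeq2, lowest unadjusted p 0.0812, lowest adjusted p 0.607), 206 kept the direction and 25 reversed it. Bcl2, Bcl2l2 and Bak1 never reversed. Over the 12 fits without a single library, log2 fold changes ran from -0.116 to 0.0200 for Bcl2l1, -0.0975 to 0.0962 for Bcl2a1b, -0.0681 to 0.136 for Bcl2a1d, -0.0671 to 0.174 for Bcl2a1a, -0.298 to 0.0268 for Bax, -0.0187 to 0.303 for Bcl2l11 and -0.226 to 0.0182 for Bid. A covariate for the matrix score gave log2 fold changes of -0.0209 for Mcl1, -0.157 for Bcl2a1d and -0.113 for Bcl2a1a. Without DMSO replicates 3 and 5 they were -0.0349 for Mcl1, -0.108 for Bcl2a1d, -0.0190 for Bcl2l11 and -0.0360 for Bcl2a1a. Within replicates 3 to 6 they were 0.255 for Bcl2a1b and 0.0361 for Bid, and a term for the numbers gave 0.00218 for Bcl2a1b. Library totals in place of TMM gave -0.0172 for Bcl2a1d. Summing the copies gave 0.0259 for Bcl2a1b, and the highest copy alone gave -0.00578 for Bcl2a1d and Bcl2a1a.

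Pathway genes with an unadjusted p under 0.05 numbered 4. They were 1 in DESeq2, 2 after scaling by library totals, 7 where every gene with a molecule was kept, 2 after a covariate for the matrix score and 2 without DMSO replicates 3 and 5. They ran from 2, without DMSO replicate 5 or without picrotoxin replicate 5, to 6, without DMSO replicate 1 or picrotoxin replicate 4. None had an adjusted p under 0.05 in any fit. The causes were not tested. With the replicate block 0 of 10 members and 4 pathway genes had an unadjusted p under 0.05 and no call changed among them, while 43 of all tested genes had an adjusted p under 0.05, against 5 without it.

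Over all tested genes the adjusted p was under 0.05 for 2 in DESeq2 and 13 after scaling by library totals. It was so for 81 of the 13815 genes with a molecule, 27 given the term for the numbers, 49 in replicates 3 to 6 and 12 without Rn45s, but for 0 after the matrix covariate, where 563 had an unadjusted p under 0.05. Dropping single libraries gave 0 (DMSO replicates 5 and 6, picrotoxin replicates 2, 3 and 4, with 607 to 700 genes at an unadjusted p under 0.05) to 25 (DMSO replicate 1). Leaving out Rn45s, totals differed by -29206 molecules (exact permutation test, p = 0.0649). Depth limits Bcl2, Bid and Bcl2l2 most, with at most 11 molecules in any library.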

Other observations

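Bok, an effector-like relative of BAX and BAK, was too scarce to be tested (mean 0.823 normalised molecules) and was picked out after its values were seen. DMSO replicates 1 to 6 held 0, 2, 3, 0, 5 and 1 molecules, and the 6 picrotoxin libraries held none. With the 11 DMSO molecules taken as exact, the DMSO share was 3.30 times the limit that a count of 0 allows (3 molecules over the picrotoxin group). The counting error of those 11 molecules is not part of this value, so it is no lower bound on the difference. Of the 11 molecules, 8 were in DMSO replicates 3 and 5, which held 186 and 773 molecules of fibroblast and matrix markers, and the other DMSO libraries held 3. The part of those markers in the counts of Bok was not tested.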
